A study of Mus musculus with 9 samples.

Results

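The 10 genes *Ccnd1*, *Ccnd2*, *Ccnd3*, *Cdk4*, *Cdk6*, *Cdkn1a*, *Cdkn1b*, *Cdkn2a*, *Cdkn2b* and *Cdkn2c* were read as the rows with these symbols among the 55276 symbols of the count table. They encode the D-type cyclins, the kinases these cyclins activate and inhibitors of those kinases. All 10 were in the table, 8 passed the filter on low counts and were tested, and 2 (*Cdkn2a* and *Cdkn2b*) were listed at 0 in every library. RNA came from PPTR cells, a mouse line of intrahepatic cholangiocarcinoma, the cancer of the bile ducts inside the liver. All groups descend from the same genetic model, in which a tamoxifen-inducible Cre recombinase driven by *Prom1* acts on floxed alleles and a *Rosa*-ZsGreen reporter. The control cells are labelled WT, and the paper calls them *Vcam1* ctrl. The sources used here do not say whether they went through Cas9 treatment or cloning. KO1 and KO2 are 2 *Vcam1* knockout lines, each grown from 1 cell after Cas9 cutting in the second exon. Each group had 3 mRNA libraries from different passages, 9 in all, with 53415907 to 125223073 estimated counts per library. Each knockout line is 1 clone, so p-values measure the spread between passages of these cultures, and the effect of the edit cannot be told apart from that of picking a clone. Where the clones are pooled, the difference between them also counts as spread, and the 6 libraries stand for only 2 clones.

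D-type cyclins accumulate when growth factor signals reach a resting or cycling cell, and they bind and activate CDK4 and CDK6. The active kinases phosphorylate the retinoblastoma protein, which then releases E2F transcription factors, and the cell passes from G1 into S phase. The INK4 inhibitors (encoded by *Cdkn2a*, *Cdkn2b* and *Cdkn2c*) bind CDK4 and CDK6 and keep the cyclin out, while the CIP/KIP inhibitors (*Cdkn1a* and *Cdkn1b*) bind cyclin-CDK complexes, CDK2 complexes in particular. *Cdkn1a* is switched on by stress and DNA damage signals. Cyclin D1 is often raised in cancers of the bile duct and liver, and loss of the *CDKN2A* and *CDKN2B* genes is a frequent lesion of human cholangiocarcinoma.

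In CPM, counts scaled to library size with TMM factors, *Vcam1* was at 221 to 329 in WT, 92.4 to 128 in KO1 and 83.0 to 119 in KO2, so the clones lay below WT but kept transcript. The paper reports, from quantitative RT-PCR and flow cytometry, that both clones had lost *Vcam1* expression. Counts per gene do not show whether protein was made. *Prom1* was at 0.240 CPM or less in every library. The markers of bile duct epithelium split the groups. Of 10 markers, 7 were lower in each clone and 1 (*Spp1*) was higher, and *Krt19*, the defining keratin of bile duct cells, was at 2129 to 2406 CPM in WT against 0.0160 to 0.226 in the clones. The summed level of the 10 markers was 13570 to 15250 CPM in WT, 10620 to 11080 in KO1 and 7635 to 11080 in KO2, most of it *Spp1* in the clones. The 10 fibroblast markers summed to 431 to 837 CPM in WT, 12560 to 15970 in KO1 and 6770 to 9110 in KO2. The list did not move as a whole, since *Dcn*, named after its values were seen, was at 58.3 to 105 CPM in WT, 2.16 to 8.35 in KO1 and 51.7 to 113 in KO2, and *Lum* was at 2.35 or less in every library and at 0 in WT. Hepatocyte markers summed to 252 to 440 CPM in WT and to 3.02 or less in the clones, where *Hnf4a* was at 0. Endothelial markers summed to at most 2.01 CPM and haematopoietic markers to at most 8.92 CPM in any library. WT also had *Hnf4a* at 207 to 264 CPM and *Ttr* at 35.4 to 138, and the bile duct marker *Cldn4* at 0.486 or less. *Ttr* and *Cldn4* were named after their values were seen. The label of a bile duct cancer cell thus held for WT by its keratins, while the keratins and *Epcam* were near 0 in both clones. This shift was present in both clones, beside every difference from WT described here. Some of those differences were found in 1 clone only or, for *Ccnd2*, had opposite directions in the clones. The part of the shift in those differences was not tested. In bulk RNA, fewer cells of a type and less RNA per cell cannot be told apart.

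Most of the 8 tested members differed from WT in each clone. Genes were tested in edgeR (quasi-likelihood) and p was adjusted by Benjamini-Hochberg over all 17672 tested genes, with a threshold of 0.05. In KO1 against WT 7 members passed, 4 higher and 3 lower. The background of that comparison was high, as 59.9% of all tested genes passed, 29.9% higher and 30.0% lower. In KO2 against WT 7 members passed, 3 higher and 4 lower, against 51.4% of all genes (25.3% higher and 26.1% lower). With the clones pooled as 6 libraries, 5 members passed, 3 higher and 2 lower, against 43.0% of all genes (21.7% and 21.2%). Between the clones, 6 members differed, 3 higher and 3 lower in KO1 than in KO2, against 38.7% of all genes (20.2% and 18.5%). All comparisons with WT share the same 3 WT libraries. *Ccnd3*, *Cdk4* and *Cdkn2c* were higher than WT in both clones, *Ccnd1*, *Cdk6* and *Cdkn1a* were lower in both, and *Ccnd2* was higher in KO1 and lower in KO2.

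**Figure D1:**
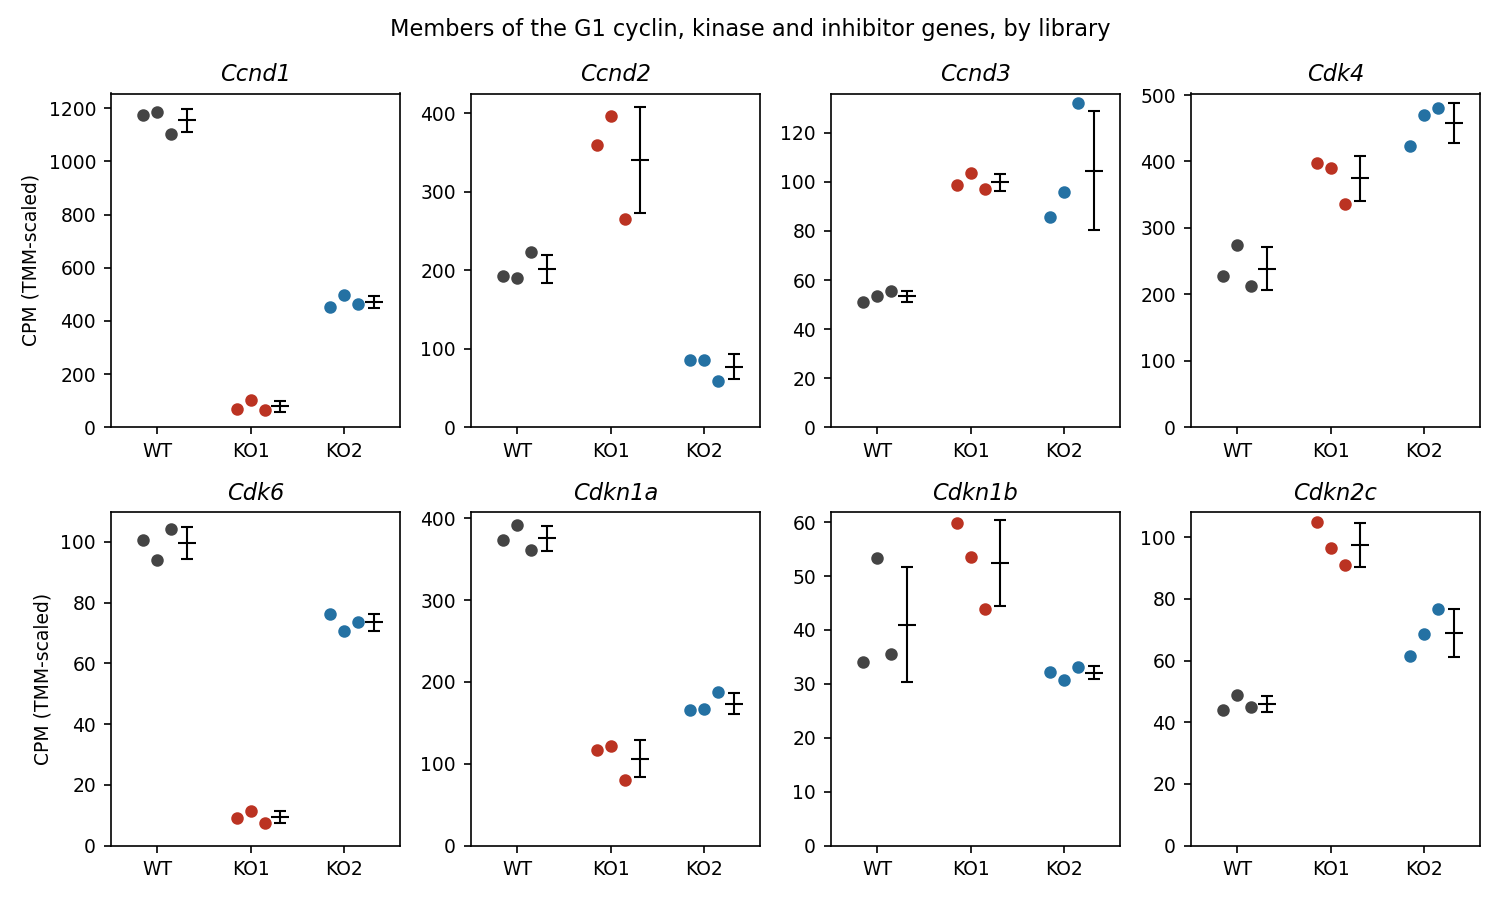
Level of the 8 tested members in each of the 9 libraries, in TMM-scaled CPM on linear axes from 0 (points are libraries in the order of replicates 1 to 3, bars are mean ± SD of 3 libraries). *Ccnd1* and *Cdk6* are lowest in KO1 (0.0682 and 0.0936 of the WT mean). In KO2 both lie below WT (0.408 and 0.737), and *Cdk6* is closer to it. *Ccnd2* lies above WT in KO1 and below it in KO2.

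The D-type cyclins moved in different directions. *Ccnd1*, the cyclin most tied to growth factor signals, was at 1175, 1185 and 1103 CPM in the WT libraries, 66.7, 103 and 66.1 in KO1 and 453, 496 and 465 in KO2. The 3 groups did not overlap, with KO1 lowest and KO2 between. The mean was 1154 ± 44.5 CPM in WT, 78.7 ± 21.3 in KO1 and 471 ± 22.5 in KO2 (SD, n = 3 each), or 0.0682 and 0.408 of the WT mean. In edgeR's test the log2 fold change was -3.87 in KO1 (standard error 0.20, adjusted p = 4.1e-07) and -1.29 in KO2 (0.18, adjusted p = 0.00023). The clones differed by -2.58 (0.18, adjusted p = 1.5e-05, KO1 minus KO2). With the clones pooled the change was -2.07 (0.68, adjusted p = 0.034 in edgeR). That pooled call was lost when WT replicate 1, 2 or 3 or KO1 replicate 2 was left out, with an adjusted p of up to 0.083 in the edgeR fit.

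*Ccnd2*, which acts like *Ccnd1* but is made in other tissues and states, was at 192, 190.2 and 222 CPM in WT, 359, 396 and 265 in KO1 and 85.8, 86.2 and 59.1 in KO2. Every KO1 library lay above every WT library and every KO2 library below. The log2 fold change was 0.76 in KO1 (standard error 0.19, adjusted p = 0.0067 in edgeR) and -1.39 in KO2 (0.19, adjusted p = 0.00025), a difference between the clones of 2.14 (0.20, adjusted p = 6.4e-05). The fit with the clones pooled gave 0.05 (0.61, adjusted p = 0.96 in edgeR), with 209 ± 151 CPM over the 6 clone libraries, and the sign of that value depended on the fit, as the average of the clones' own fold changes was -0.32.

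*Ccnd3*, the third D-type cyclin, was at 50.9, 53.6 and 55.5 CPM in WT, 98.6, 104 and 97.2 in KO1 and 85.9, 96.1 and 132 in KO2. Both clones lay above WT in every library and overlapped each other. The log2 fold change was 0.91 in KO1 (standard error 0.15, adjusted p = 0.00062 in edgeR) and 0.97 in KO2 (0.15, adjusted p = 5e-04). Between the clones the difference was -0.07, with a 95% interval from -0.40 to 0.27 (adjusted p = 0.74 in edgeR).

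Levels of different genes were compared per exon length, as TMM-scaled CPM per kilobase of the union of exons. Summed over the 3 D-type cyclins, the level was 273 ± 7.34 CPM per kilobase in WT, 64.3 ± 11.3 in KO1 and 120.2 ± 5.25 in KO2 (SD, n = 3), so the gains in *Ccnd3*, and in *Ccnd2* in KO1, were smaller than the loss of *Ccnd1*. *Ccnd1* made up 89.9% ± 1.07 of the sum in WT, 25.8% ± 3.35 in KO1 and 83.3% ± 0.903 in KO2. *Ccnd2* made up 7.88% ± 0.933 in WT, 56.2% ± 3.61 in KO1 and 6.82% ± 1.41 in KO2. *Ccnd2* was therefore the most abundant D-type cyclin transcript in KO1, and *Ccnd1* was in WT and KO2. Per length of the longest transcript, *Ccnd2* made up 53.2% ± 3.61 in KO1 and *Ccnd1* 20.7% ± 2.90, so the order of those members did not depend on this choice, although *Ccnd3* then passed *Ccnd1* in KO1 (26.1% ± 3.41).

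**Figure D2:**
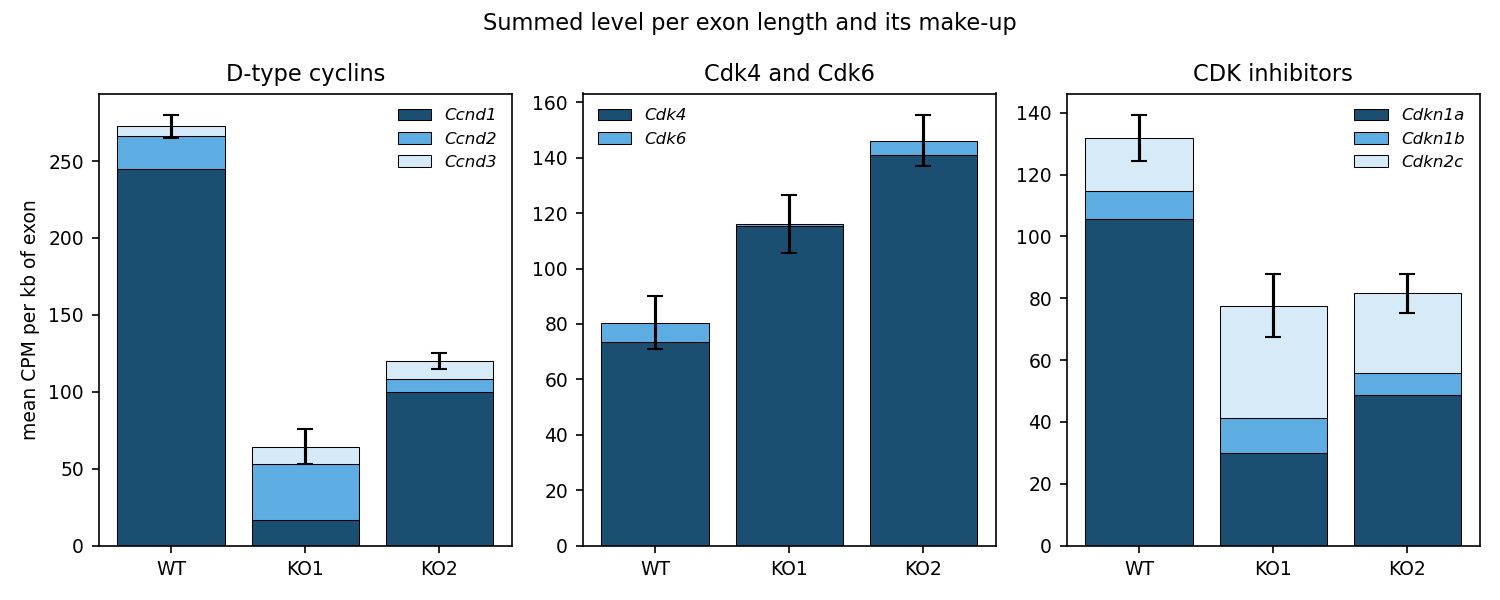
Summed mean level per kilobase of exon (CPM per kb, linear axes from 0) of the D-type cyclins, of *Cdk4* and *Cdk6*, and of the 3 inhibitors with counts, stacked by gene, with error bars for the SD of the sum over 3 libraries. The cyclin sum falls from 273 in WT to 64.3 in KO1 and 120.2 in KO2, while the kinase sum is higher in both clones.

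The kinases also parted. *Cdk4* was at 228, 275 and 213 CPM in WT, 398, 389.9 and 336 in KO1 and 423, 470.0 and 480.2 in KO2. All clone libraries lay above all WT libraries. The log2 fold change was 0.65 in KO1 (standard error 0.13, adjusted p = 0.0021 in edgeR) and 0.94 in KO2 (0.13, adjusted p = 0.00028), and 0.80 with the clones pooled (0.15, adjusted p = 0.0025). Every KO1 library was below every KO2 library, but the difference of -0.29 did not pass (95% interval from -0.59 to 0.01, adjusted p = 0.11 in edgeR).

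*Cdk6* was at 101, 94.0 and 104 CPM in WT, 9.25, 11.4 and 7.36 in KO1 and 76.3, 70.5 and 73.7 in KO2. The groups did not overlap, and KO1 stood far below the other two. The log2 fold change was -3.42 in KO1 (standard error 0.16, adjusted p = 2.8e-07 in edgeR) and -0.44 in KO2 (0.14, adjusted p = 0.029), with a difference between the clones of -2.98 (0.16, adjusted p = 3.1e-06). The small fall in KO2 lost its call when WT replicate 1 or 3 or any KO2 replicate was left out, with an adjusted p of up to 0.096 in edgeR. With the clones pooled the change was -1.27 (0.76, adjusted p = 0.21), since the spread between them counted as error. Per exon length *Cdk4* was 91.0% ± 1.47 of the sum of both kinases in WT, 99.4% ± 0.0885 in KO1 and 96.4% ± 0.356 in KO2, so *Cdk4* was the main kinase transcript in every group, and the sum was 80.5 ± 9.62, 116 ± 10.4 and 146 ± 9.19 CPM per kilobase.

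Because the 2 kinases moved in opposite directions, their promoters are shown. RefSeq start regions (250 bases before to 50 after the start, GRCm38.p6, from the table used here) were found for 8 of the 10 members, and *Ccnd1* and *Ccnd2* had no entry. Both strands were searched for 5 motifs: the E-box CACGTG (which Myc and other factors recognise), the E2F motif TTTNGCGC, the GC box GGGCGG, the AP-1 motif TGANTCA and the cyclic AMP element TGACGTCA. These were in 7.15%, 1.38%, 35.7%, 7.81% and 1.79% of all 32851 promoters of that length. The *Cdk4* region (chr10:127063285-127063584, plus strand) held 4 E-boxes and 3 GC boxes, 2 of which share 1 base, and the *Cdk6* region (chr5:3343643-3343942, plus strand) held 1 E-box and no GC box. Capitals mark the matches, which are matches of letters and not shown to be bound.
Cdk4: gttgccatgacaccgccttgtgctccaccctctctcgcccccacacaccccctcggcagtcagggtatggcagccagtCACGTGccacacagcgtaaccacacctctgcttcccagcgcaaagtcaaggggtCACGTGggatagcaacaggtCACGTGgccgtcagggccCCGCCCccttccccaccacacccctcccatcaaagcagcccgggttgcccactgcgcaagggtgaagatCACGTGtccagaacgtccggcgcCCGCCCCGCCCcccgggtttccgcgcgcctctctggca
Cdk6: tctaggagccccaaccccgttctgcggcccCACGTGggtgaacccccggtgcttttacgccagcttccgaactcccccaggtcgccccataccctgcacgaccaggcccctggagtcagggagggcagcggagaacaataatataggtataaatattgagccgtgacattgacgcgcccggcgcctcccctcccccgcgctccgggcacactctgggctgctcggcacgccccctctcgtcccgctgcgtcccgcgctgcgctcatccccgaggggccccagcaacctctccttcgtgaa

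**Figure D3:**
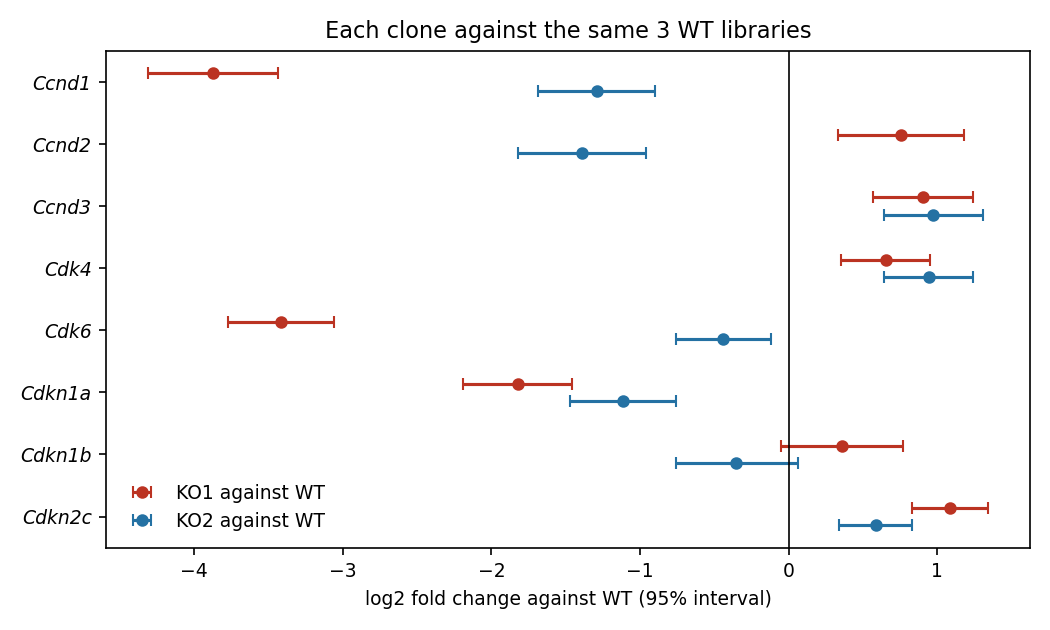
Log2 fold change of each clone against the same 3 WT libraries, from edgeR's quasi-likelihood fit, with 95% intervals. *Ccnd1* and *Cdk6* have the lowest values, both in KO1 (-3.87 and -3.42), and the intervals of *Ccnd3*, *Cdk4* and *Cdkn2c* lie above 0 in both clones.

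Among the CIP/KIP inhibitors *Cdkn1a* fell and *Cdkn1b* was not called against WT. *Cdkn1a*, which encodes p21, was at 373, 392 and 361 CPM in WT, 117, 121 and 79.98 in KO1 and 166, 167 and 188 in KO2. The 3 groups did not overlap, with KO1 lowest. The log2 fold change was -1.82 in KO1 (standard error 0.16, adjusted p = 1.1e-05 in edgeR) and -1.11 in KO2 (0.16, adjusted p = 3e-04), and -1.43 with the clones pooled (0.24, adjusted p = 0.0011). The clones differed by -0.71 (adjusted p = 0.0067 in edgeR). *Cdkn1b*, which encodes p27, was at 34.1, 53.3 and 35.5 CPM in WT, 59.7, 53.5 and 43.9 in KO1 and 32.2, 30.8 and 33.1 in KO2. KO1 overlapped WT and KO2 lay just below it, and neither passed (log2 fold change 0.36, adjusted p = 0.12, and -0.35, adjusted p = 0.13, in edgeR), with 95% intervals from -0.05 to 0.77 and from -0.76 to 0.06. The difference between the clones of 0.71 passed (0.18, adjusted p = 0.014 in edgeR) but not without KO1 replicate 1 or KO2 replicate 2, where the adjusted p rose to as much as 0.058. Without WT replicate 2, the highest WT library, *Cdkn1b* passed in KO1 (adjusted p = 0.016 in edgeR).

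The INK4 inhibitors gave 1 expressed gene and 2 without counts. *Cdkn2c*, which encodes p18, was at 44.1, 48.8 and 45.1 CPM in WT, 105, 96.6 and 90.9 in KO1 and 61.4, 68.8 and 76.8 in KO2. The groups did not overlap, with KO1 highest. The log2 fold change was 1.08 in KO1 (standard error 0.11, adjusted p = 3.1e-05 in edgeR) and 0.59 in KO2 (0.11, adjusted p = 0.0017), with 0.50 between the clones (adjusted p = 0.0068) and 0.86 for the clones pooled (adjusted p = 0.0043). Per exon length the inhibitor with the most transcript was *Cdkn1a* in WT (80.2% ± 1.41 of the summed 3 inhibitors) and in KO2 (59.9% ± 0.907) and *Cdkn2c* in KO1 (47.1% ± 3.80, against 38.1% ± 3.84 for *Cdkn1a*). Per length of the longest transcript *Cdkn1a* led in KO1 as well (49.6% ± 4.11 against 39.1% ± 3.88), so the order in KO1 depended on the length used.

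*Cdkn2a* and *Cdkn2b* lie side by side on chromosome 4 (89274471 to 89294653 and 89306299 to 89311039 on the minus strand, GRCm38). Each had 0 counts in each of the 9 libraries and 0 of the 680868205 counts in all, so neither could be tested. A count of 0 allows up to 3 counts, 0.0239 to 0.0554 CPM per library and 0.00441 CPM over all 9, and these limits cover counting error only. Both genes were listed at 0 in WT as in the clones. Counts of 0 in all libraries were found for 2601 of 21590 protein-coding genes matched by symbol (12.0%), so a 0 was not rare in this table.

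The genes around the pair were read in the same libraries. *Mtap*, an enzyme gene of methionine salvage 93.4 kilobases away, had 14786 to 51841 counts per library. *Gm12606*, a non-coding RNA gene 1068 bases from the end of *Cdkn2a*, had 14 to 89 counts. On the other side *Gm12609*, the nearest annotated gene, had 0 to 3 counts, *Gm12610* had 4 to 39 counts, and *Dmrta1*, 368 kilobases away, had 1046 to 1425 counts in WT and 0 to 3 in the clones. *Mtap* was lower in KO1 (log2 fold change -0.77, adjusted p = 0.00013 in edgeR) and had -0.03 in KO2 (adjusted p = 0.84). *Mtap* and *Gm12606* on one side thus gave counts in every library, there were few counts next to the pair on the other side, and the pair and 3 short annotated genes of other kinds (*Gm26490*, *Tgif2-ps1* and *Gm27580*, named after their values were seen) gave 0. Gene-level counts do not separate the *Cdkn2a* transcripts for p16Ink4a and p19Arf, which start at different first exons and share the rest.

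**Figure D4:**
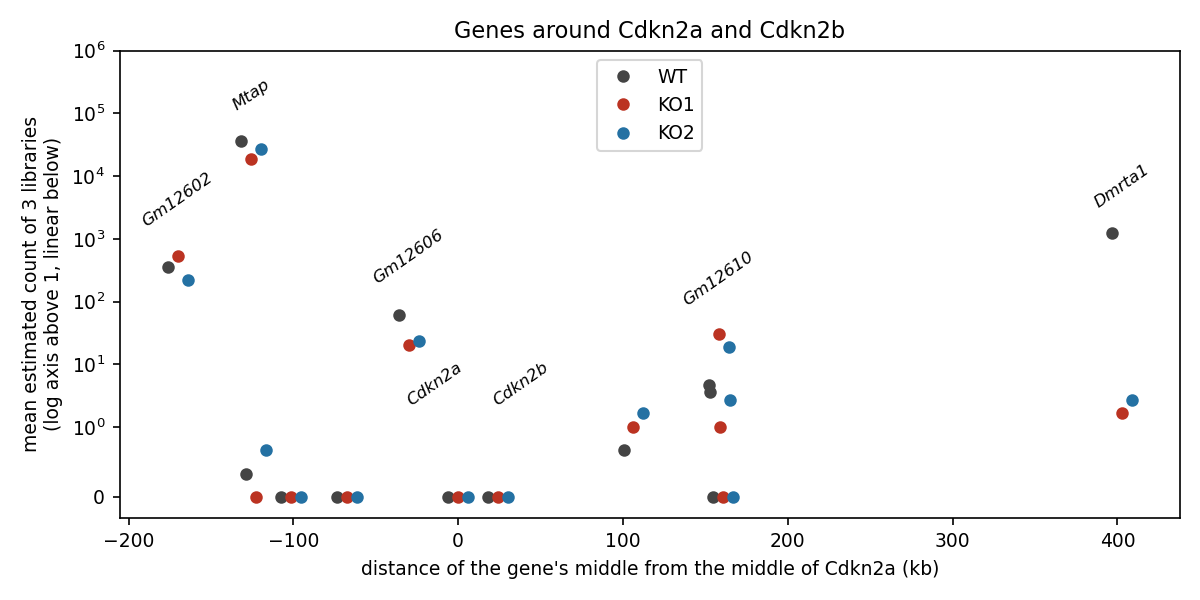
Mean estimated count of 3 libraries per group for the annotated genes around *Cdkn2a* and *Cdkn2b*, by distance of each gene's middle from that of *Cdkn2a* in kilobases (logarithmic axis above 1 count, linear below, groups shifted sideways to be visible). *Cdkn2a* and *Cdkn2b* are at 0 in all 3 groups, between *Gm12606* (14 to 89 counts per library) and *Gm12610* (4 to 39).

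The start regions of this pair are shown because both genes were listed at 0. The upstream start of *Cdkn2a*, that of p19Arf (chr4:89294570-89294869), held 3 GC boxes, the downstream start, that of p16Ink4a (chr4:89282143-89282442), held 1 E2F motif and 1 GC box, and *Cdkn2b* (chr4:89310983-89311282) held 1 GC box and 1 cyclic AMP element. All are on the minus strand, and capitals mark the matches. The p19Arf region had 77.0% G and C and 45 CpG, against medians of 52.7% and 7 in all promoters.
Cdkn2a upstream start: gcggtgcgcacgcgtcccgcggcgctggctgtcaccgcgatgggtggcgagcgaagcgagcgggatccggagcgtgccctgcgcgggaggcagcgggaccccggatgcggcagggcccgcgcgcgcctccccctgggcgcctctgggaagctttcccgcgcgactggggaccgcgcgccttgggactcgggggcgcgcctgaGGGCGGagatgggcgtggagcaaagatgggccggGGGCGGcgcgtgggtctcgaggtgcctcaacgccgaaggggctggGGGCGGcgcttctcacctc
Cdkn2a downstream start: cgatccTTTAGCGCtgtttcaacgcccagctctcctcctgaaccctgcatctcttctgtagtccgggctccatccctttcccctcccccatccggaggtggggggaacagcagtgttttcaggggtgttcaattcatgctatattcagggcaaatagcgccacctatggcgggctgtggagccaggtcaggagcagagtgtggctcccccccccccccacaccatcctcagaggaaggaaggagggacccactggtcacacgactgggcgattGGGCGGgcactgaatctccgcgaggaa
Cdkn2b: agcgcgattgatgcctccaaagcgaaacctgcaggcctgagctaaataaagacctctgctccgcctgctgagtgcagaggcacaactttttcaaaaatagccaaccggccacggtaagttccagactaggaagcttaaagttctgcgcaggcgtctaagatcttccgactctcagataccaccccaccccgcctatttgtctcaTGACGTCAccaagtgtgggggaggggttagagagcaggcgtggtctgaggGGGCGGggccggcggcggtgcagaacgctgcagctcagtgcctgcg

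The order of the members' levels per exon length differed between groups. In WT *Ccnd1* was highest (245 ± 9.45 CPM per kilobase), followed by *Cdkn1a* (106 ± 4.38), *Cdk4* (73.4 ± 9.99), *Ccnd2* (21.4 ± 1.93), *Cdkn2c* (17.1 ± 0.930), *Cdkn1b* (9.0 ± 2.35), *Cdk6* (7.13 ± 0.376) and *Ccnd3* (6.08 ± 0.265), and the ranges of neighbours in this order did not overlap. In KO1 *Cdk4* led with 115 ± 10.3, followed by *Cdkn2c* (36.3 ± 2.65), *Ccnd2* (36.2 ± 7.16), *Cdkn1a* (29.8 ± 6.38), *Ccnd1* (16.7 ± 4.53), *Cdkn1b* (11.5 ± 1.75), *Ccnd3* (11.4 ± 0.387) and *Cdk6* (0.667 ± 0.143). There *Cdkn2c*, *Ccnd2* and *Cdkn1a* overlapped as neighbours, as did *Cdkn1b* with *Ccnd3*. In KO2 *Cdk4* also led (141 ± 9.34), then *Ccnd1* (100.1 ± 4.79), *Cdkn1a* (48.8 ± 3.51), *Cdkn2c* (25.7 ± 2.88), *Ccnd3* (11.9 ± 2.76), *Ccnd2* (8.19 ± 1.65), *Cdkn1b* (7.04 ± 0.258) and *Cdk6* (5.25 ± 0.207), with *Ccnd2* and *Cdkn1b* overlapping. These orders depended on the length used, as per length of the longest transcript *Ccnd3* in WT (13.8) was above *Cdkn1b* (9.0) and *Cdk6* (8.65), and in KO1 *Ccnd2* (53.8) and *Cdkn1a* (51.0) were above *Cdkn2c* (39.5).

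Positions were read from GENCODE vM21 on GRCm38. *Ccnd1* is on chromosome 7 from 144929931 to 144939925 (minus strand), *Ccnd2* on chromosome 6 from 127125162 to 127152193 (minus) and *Ccnd3* on chromosome 17 from 47505051 to 47599691 (plus). *Cdk4* is on chromosome 10 from 127063534 to 127067920 and *Cdk6* on chromosome 5 from 3341485 to 3531008, both on the plus strand. *Cdkn1a* is on chromosome 17 from 29090976 to 29100727 (plus), *Cdkn1b* on chromosome 6 from 134920401 to 134925513 (plus) and *Cdkn2c* on chromosome 4 from 109660876 to 109667189 (minus). No gene overlapped a member on its own strand, and reads were counted by strand. The pseudogene *Ccnd3-ps* had 0 to 5 counts per library.

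The nearest tested protein-coding genes beside the members that fell most were read as well. Genes that overlap a member on the other strand, such as *LTO1* at *Ccnd1*, were left out. Beside *Ccnd1*, *Ano1* was lower in both clones (log2 fold change -2.15 and -1.45, adjusted p = 3.6e-06 and 4.8e-05 in edgeR), whereas *Tpcn2* was higher (0.84 and 0.40, adjusted p = 0.00021 and 0.017). *Fgf15*, the nearest of those read, was at 0.572 to 1.20 CPM in WT and 0.0599 or less in the clones. It was called lower in both (adjusted p = 0.00062 and 0.00076 in edgeR). *Mrgprf*, next after *Tpcn2*, was higher too (3.30 and 3.38, adjusted p = 2.2e-06 and 2.5e-06 in edgeR). Beside *Cdk6*, *Fam133b* was lower in KO1 (-0.67, adjusted p = 0.02) and had 0.06 in KO2 (adjusted p = 0.84 in edgeR). The next gene, *1700109H08Rik*, was not called in either clone. The neighbours of *Ccnd1* thus moved in both directions, and the directions differed by side. *Ano1* and *Fgf15*, at lower coordinates than *Ccnd1*, were lower in both clones, and *Tpcn2* and *Mrgprf*, at higher coordinates, were higher.

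By Pearson r of log2 CPM over the 9 libraries, among 10876 genes with a mean of at least 5 CPM, *Klrg2* (r = 0.998), *Ddx27* (r = 0.996) and *Areg* (r = 0.994) were most like *Ccnd1*. *Areg* was at 442 ± 143 CPM in WT, 0.110 ± 0.116 in KO1 and 14.5 ± 0.657 in KO2. For *Cdk6* these were *Sgsm1*, *Parvb* and *Fes* (r = 0.997, 0.997 and 0.996). *Parvb* was at 168 ± 2.71, 15.2 ± 4.33 and 136 ± 9.50 CPM. The libraries form 3 groups, so r mostly describes the order of 3 group means.

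The rest of the G1/S machinery was read from a list of 30 genes, all of which were tested. In KO1 16 passed, 3 higher and 13 lower (53.3% of the list against the 59.9% background), with a median log2 fold change of -0.42 against 0.02 over all genes. In KO2 10 passed, 4 higher and 6 lower (33.3% against 51.4%), with a median of 0.04 against 0.00. With the clones pooled 9 passed, 2 higher and 7 lower (30.0% against 43.0%), and that count fell to 4 without WT replicate 1 and to 5 without WT replicate 3. Between the clones 12 differed, 2 higher and 10 lower in KO1 (40.0% against 38.7%), and 6 without KO2 replicate 3. The shares of the list lay below those over all genes in each comparison with WT, a difference that was not tested, and most calls of KO1 were in the lower direction.

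*Myc*, a transcription factor that drives growth and acts on *Ccnd2* and *Cdk4*, was at 196, 243 and 223 CPM in WT, 17.4, 36.0 and 48.5 in KO1 and 146, 111 and 58.9 in KO2. The clones lay below WT and KO1 below KO2. Its log2 fold change was -2.70 in KO1 (standard error 0.40, adjusted p = 0.00033 in edgeR) and -1.07 in KO2 (0.38, adjusted p = 0.041). *Mycn*, its relative, was at 1.78 to 3.25 CPM in WT and 0 to 0.562 in the clones (pooled log2 fold change -3.52, adjusted p = 0.011 in edgeR). *E2f2*, an activating E2F, was at 8.16 to 15.7 CPM in WT, 0.702 to 3.06 in KO1 and 3.01 to 6.79 in KO2 (pooled -1.74, adjusted p = 0.023 in edgeR).

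*Mnat1*, a subunit of the CDK-activating kinase, was lower in both clones (log2 fold change -0.94 and -0.89, adjusted p = 0.00034 and 0.00062 in edgeR). *Fbxo4*, a ubiquitin ligase subunit linked to cyclin D1 turnover, was higher in both (0.60 and 0.76, adjusted p = 0.0025 and 0.00073 in edgeR). *Cdk2*, the kinase of cyclins E and A, was higher in KO2 (0.95, adjusted p = 0.009) and had 0.55 in KO1 (adjusted p = 0.076 in edgeR). It was at 40.6, 51 and 30.4 CPM in KO1 and 43.5, 46.8 and 70.95 in KO2. The clones overlapped, and their difference did not pass (-0.40, adjusted p = 0.22 in edgeR). *Rb1*, the retinoblastoma gene, was at 25.4 to 27.2 CPM in WT, 43.3 to 51.8 in KO1 and 22.4 to 36.9 in KO2. It was higher in KO1 (0.87, adjusted p = 0.0017 in edgeR) and had 0.17 in KO2 (adjusted p = 0.44), and the clones differed by 0.70 (adjusted p = 0.01). The inhibitors *Cdkn1c* (CIP/KIP) and *Cdkn2d* (INK4) complete those families and were named after their values were seen. *Cdkn1c* had 80 to 376 counts in WT, 65 to 162 in KO1 and 1 to 6 in KO2 (adjusted p = 0.33 in KO1 and 5.4e-05 in KO2 in edgeR), so KO2 stood far below both other groups. *Cdkn2d* was at 9.26 to 11.5 CPM in WT, 10.5 to 21.3 in KO1 and 13.7 to 32.2 in KO2, higher in KO2 (1.02, adjusted p = 0.033 in edgeR) and not called in KO1 (0.71, adjusted p = 0.1).

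**Figure D5:**
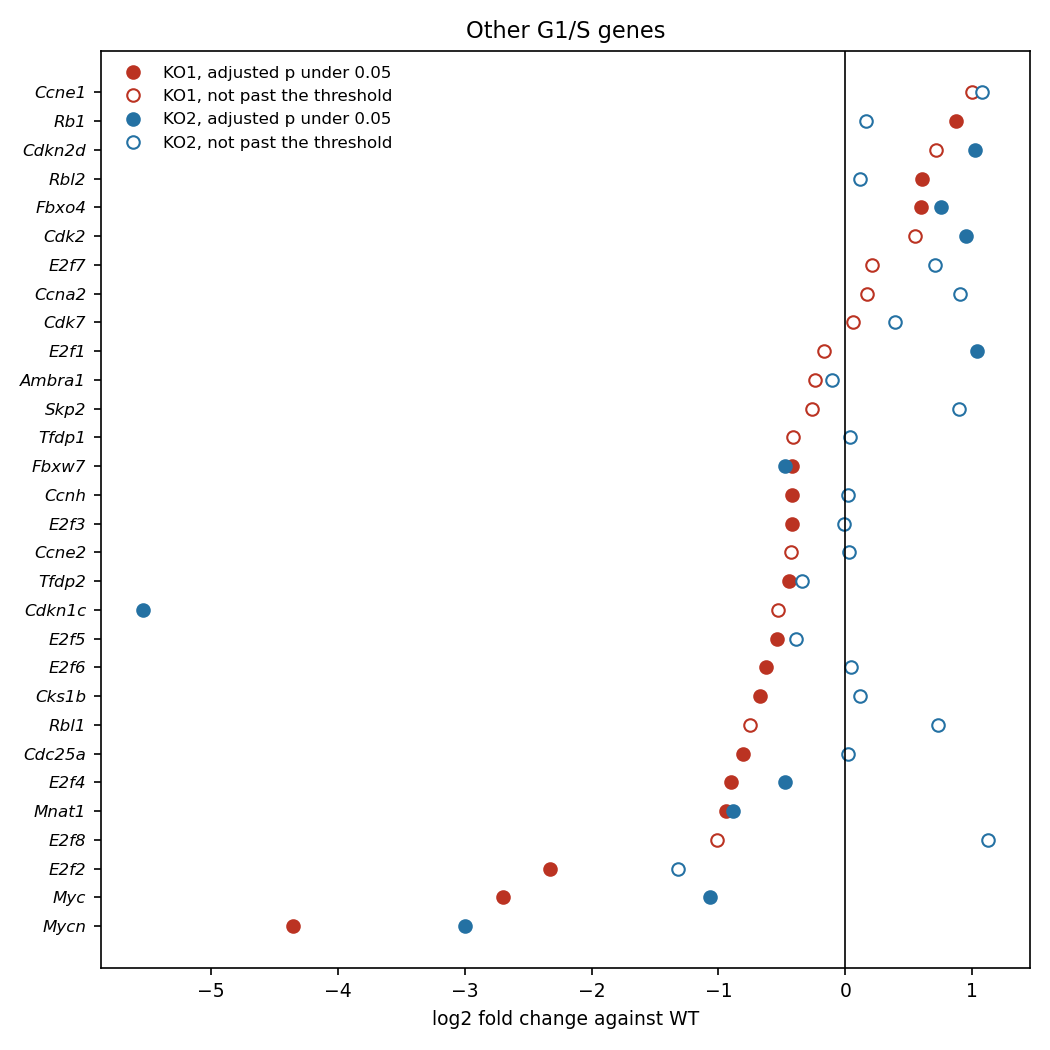
Log2 fold change against WT in KO1 (red) and KO2 (blue) for 30 other G1/S genes, ordered by the value in KO1, with filled points where edgeR's adjusted p was under 0.05. *Mycn*, *Myc* and *E2f2* have the lowest values in KO1 (-4.36, -2.70 and -2.33). In KO1 13 of the 30 genes were called lower (43.3%, against 30.0% of all tested genes). In KO2 6 were called lower (20%, against 26.1%).

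Proliferation markers were read because the members act on the cell cycle. Of 16 markers, 0 passed with the clones pooled (1 at an unadjusted p under 0.05 in edgeR, and the median log2 fold change was 0.35 against 0.07 over all genes), 1 was lower in KO1 and 1 higher in KO2. These are 0%, 6.25% and 6.25% of the list, against 43.0%, 59.9% and 51.4% of all genes. Their summed level was 1198 to 2061 CPM in WT. In KO1 it was 1546 and 1920 in replicates 1 and 2 but 327 in replicate 3. In KO2 it was 1923 and 2081 in replicates 1 and 2 but 3580 in replicate 3. *Mki67*, the gene of the Ki67 antigen, was at 155, 179 and 114 CPM in WT, 216, 239 and 27.7 in KO1 and 178, 179.6 and 332 in KO2. KO1 replicate 3 thus stood below the other KO1 libraries, and KO2 replicate 3 stood above the other KO2 libraries. KO1 replicate 3 also had the lowest CPM of its group for each of the 8 tested members. Without it the members called were 7 in KO1 against WT, 7 in KO2 against WT, 5 with the clones pooled and 6 between the clones, the counts given above for all libraries.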

How the data were processed

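The authors made stranded libraries from messenger RNA of WT, KO1 and KO2 PPTR cells, 3 per group from different passages, and sequenced them from both ends. The authors quantified reads with kallisto 0.46.1 against the GENCODE vM24 transcripts of GRCm38 (mm10), and the deposited table holds estimated counts per gene symbol, whole numbers without normalization. The step from transcripts to genes is not given in the sources used here. Each library took its group from its label, and 0 columns of values were left out.

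In edgeR 4.0.16 (R 4.3.3), filterByExpr left 17672 genes, and library sizes were scaled by TMM. The quasi-likelihood test was fitted on all of them with Benjamini-Hochberg adjustment, with 2 groups for the pooled clones and 3 groups for the other comparisons. Library totals of 53415907 to 125223073 counts left the spread between libraries as the main error. Levels per length used GENCODE vM21 exons, as vM24 was not used here. The model was tested on simulated data. The members, gene lists and rule for named genes were chosen with earlier results of these data known. By that rule the 6 G1/S genes with the largest called changes in the pooled comparison were named, with *Rb1*, *Mki67*, *Vcam1*, *Prom1*, and the 3 genes most similar to *Ccnd1* and *Cdk6*. Other genes that the rule covers are left out.

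Alternatives were limma-voom 3.58.1 (the study's own test), DESeq2 1.42.0, upper-quartile normalization, no filter, a filter at a mean of 1 CPM, fits on 6 libraries, the average of the clones' contrasts, longest transcript for lengths, and leaving out each library.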

Additional observations from a re-analysis of the deposited data

Results flagged for a closer look

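Of the 8 tested members, 6 differed between KO1 and KO2 in edgeR's test of that difference (Benjamini-Hochberg adjusted p under 0.05, KO1 minus KO2 on the log2 scale). *Ccnd1* (-2.58, adjusted p = 1.5e-05), *Cdk6* (-2.98, adjusted p = 3.1e-06) and *Cdkn1a* (-0.71, adjusted p = 0.0067) were lower in KO1. *Ccnd2* (2.14, adjusted p = 6.4e-05), *Cdkn1b* (0.71, adjusted p = 0.014) and *Cdkn2c* (0.50, adjusted p = 0.0068) were higher in KO1. *Ccnd2* was also called in opposite directions against WT in the 2 clones. Over all tested genes 38.7% differed between the clones.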

How the results depend on the processing

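Over the 8 tested members, 455 of 480 values kept their direction and their side of the threshold under the alternatives, 11 lost a call, 2 gained one and 12 turned direction. All 12 turns were of values that did not pass before or after. *Ccnd2* with the clones pooled (0.05) was -0.34 in limma-voom, -0.004 without a filter, -0.32 in the average of the clones' contrasts and -0.26 to 0.21 with 1 library left out. *Cdkn1b* with the clones pooled (0.04) was -0.10 to 0.23, and *Ccnd3* between the clones (-0.07) was -0.24 to 0.10, with 1 library left out. The losses were *Ccnd1* with the clones pooled, *Cdk6* in KO2 and *Cdkn1b* between the clones, all with 1 library left out, and the gains were *Cdkn1b* in KO1 without WT replicate 2 and *Cdk6* in the average of the clones' contrasts. The number of G1/S genes called with the clones pooled was 9, but 14 in the average of the clones' contrasts, where differences between the clones do not count as spread, and 4 to 10 with 1 library left out, lowest without WT replicate 1. Between the clones that number was 12, and 6 to 13 with 1 library left out, lowest without KO2 replicate 3. The cause was not tested. Without a filter on low counts 34314 symbols were tested, and 7342 passed with the clones pooled against 7591. With upper-quartile scaling the median of all genes between the clones was 0.11 on the log2 scale against 0.04. No paired analysis was possible because the labels carry no replicate numbers. With 3 libraries per group, small differences such as that of *Cdk4* between the clones did not pass.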
